A study of Schmidtea mediterranea with 48 samples.

Results

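The first 6 hours after amputation were followed in wound tissue of planarians that had received only control double-stranded RNA over a long course of feeding. The comparison sets 3 libraries taken 6 hours post amputation (6 hpa) against 3 taken at amputation (0 hpa). These 6 of the 48 libraries of the series were chosen by their labels, namely the RNAi target, the feeding course and the time, and no measured value entered that choice. The animals were Schmidtea mediterranea of the strain CIW4, kept under standard culture, and the tissue was dissected from the wound faces of tail fragments. All 6 libraries came from animals fed double-stranded RNA of unc-22, a gene of the nematode Caenorhabditis elegans that serves as the control target. The labels give 10 feedings over 5 weeks, whereas the series text gives 8 feedings for this course. Each replicate pooled 5 wounds, and polyadenylated RNA was sequenced with a stranded kit. Neither source says that the replicates came from separate sets of animals, so p-values measure the spread between these libraries, which may be technical.

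Values are set beside 3 other comparisons of 6 with 0 hpa, each of 3 against 3 libraries from the same strain and tissue. The first is myoD RNAi with the same long course of feeding, myoD being a gene for a transcription factor of muscle. The second is the unc-22 controls of a separate experiment with 6 feedings over 3 weeks. The third is fst RNAi of that same short experiment, fst being follistatin, which encodes a secreted inhibitor of Activin-type ligands. The feeding course and the experiment differ together between the long and the short course, so they cannot be told apart.

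Planarians regrow missing tissue from neoblasts, dividing cells spread through the body that include pluripotent stem cells. An injury of any kind is known to induce transcription in the tissue at the wound within hours, in epidermis, muscle and neoblasts among other cells. Muscle carries much of the positional information that later decides what a wound regrows. The deposited table identifies transcripts by assembly number and does not pair the numbers with gene names. No gene name or role can therefore be attached to a transcript here, and of the 11 marker lists prepared by gene symbol for planarian cell types, wound genes and position genes 0 had a member matched. For the same reason, the labelled tissue could not be checked against its markers.

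The 3 libraries at 0 hpa held 14466816 to 19416325 counts and the 3 at 6 hpa held 14973256 to 18065386. At 0 hpa 22663 to 23246 transcripts had a count, and at 6 hpa 23112 to 23645 did. The single most abundant transcript took 7.2 to 9.31% of counts at 0 hpa and 6.02 to 8.11% at 6 hpa. Correlations of log levels across transcripts were 0.984 to 0.991 between libraries of the same time and 0.976 to 0.985 between times. On the first principal component, which held 41.8% of the variance, the 0 hpa libraries lay at -20.1, -23.3 and -28.1 and the 6 hpa libraries at 36.2, 16.4 and 19. The 2 times did not overlap on it, and 6 hpa replicate 1 lay farthest from the 0 hpa libraries. One library outside this comparison, fst RNAi at 48 hpa replicate 1, has a note of human reads in its label. Totals of calls that rest on the spread of its experiment are given with and without it. Other values that rest on that spread are given with it unless stated.

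Most of the larger changes in the first 6 hours after amputation were rises in these control wounds. Of 17527 transcripts tested with edgeR's quasi-likelihood test, 1738 (9.92%) were higher at 6 hpa and 1748 (9.97%) were lower at a Benjamini-Hochberg adjusted p under 0.05. Together these 3486 calls made up 19.9% of the transcripts tested. TMM scaling centres the changes, so the balance of the 2 counts is not read as a result, and RLE scaling gave 1835 higher and 1610 lower. The median log2 change was 0.44 among the rises and -0.35 among the falls, against -0.018 over all transcripts tested. Changes of at least 2-fold, called strong here, numbered 274 rises (1.56% of those tested) and 67 falls (0.382%). At least 1.5-fold, there were 593 rises and 290 falls. At least 4-fold, there were 41 rises and 0 falls, and 10 rises reached 8-fold. These size classes go by the estimated change. When the test asked whether a change exceeded 2-fold (glmTreat), 35 rises and 2 falls passed. By the estimated change, calls of at least 2-fold after myoD RNAi were 290 higher and 51 lower. In the controls with 6 feedings they were 99 higher and 136 lower, and after fst RNAi 134 and 117.

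Nearly all calls separated the libraries of the 2 times. The same 6 libraries chose the calls. The separation and the levels of the called lists therefore describe the choice and do not support it. Levels are given in CPM, read counts scaled to a common library size by TMM. All 3 libraries of one time lay above all 3 of the other in 1678 of the 1738 rises and in 1624 of the 1748 falls, where 17.1% of all transcripts tested did so in each direction. Among the strong changes the times did not overlap in 265 of the 274 rises and 63 of the 67 falls. Over the 1738 rises, the median level of a library was 17.2 to 17.8 CPM at 0 hpa and 23.5 to 25.2 CPM at 6 hpa. Over the 1748 falls it was 33.8 to 34.7 CPM at 0 hpa and 26.3 to 27.2 CPM at 6 hpa. The falls numbered 1121 without 6 hpa replicate 1, and leaving out each of the other 5 libraries moved no count of rises or falls by over 1.5 times. In bulk tissue, fewer cells of a type and less RNA per cell cannot be told apart.

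**Figure D1:**
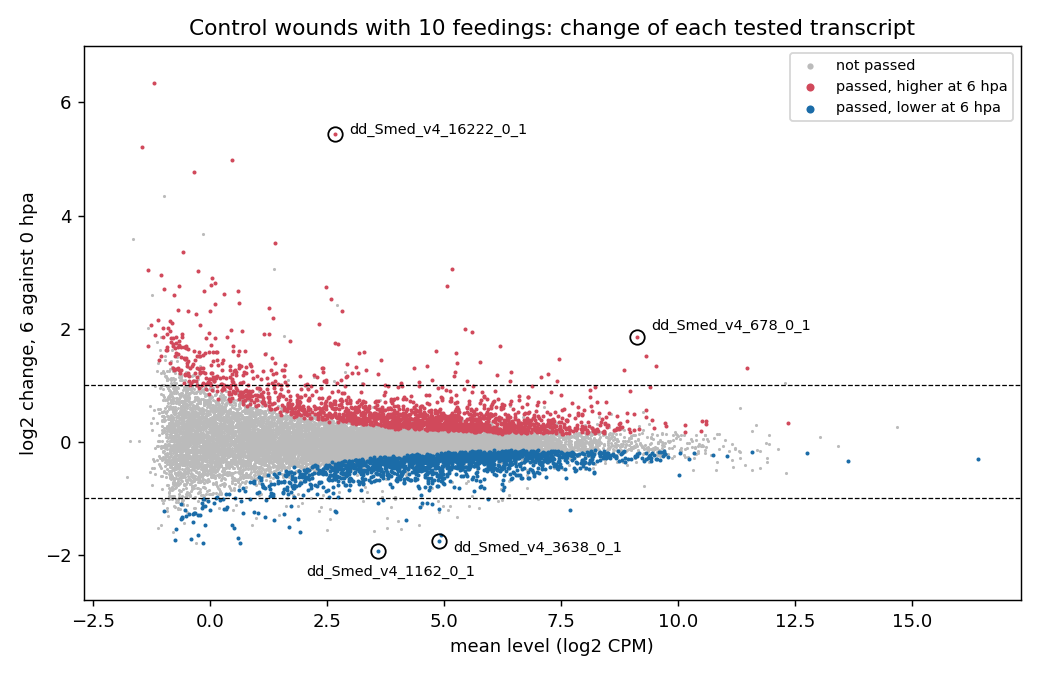
Log2 change from 0 to 6 hpa (vertical axis) against the mean level in log2 CPM (horizontal axis) of each of the 17527 transcripts tested in the control wounds with 10 feedings. Red points passed as higher, blue points passed as lower, dashed lines mark a 2-fold change and circles mark the 4 named transcripts; the 41 rises of at least 4-fold have no counterpart among the falls.

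Few calls were at 0 counts at one of the times. Of 26563 transcripts in the table, 891 had no count in the 6 libraries, and 8145 had a count but too few to be tested. Among the calls, 2 rises had 0 counts in all 3 libraries at 0 hpa. They held 29 and 13 counts over the 3 libraries at 6 hpa, which makes them at least 9.88-fold and at least 4.43-fold higher against a floor of 3 counts over the group. Their fitted changes are larger than these bounds, and both count among the 10 rises of 8-fold by the fit. No transcript called lower was at 0 counts in every 6 hpa library. Without the filter on low counts, 84 transcripts had 0 counts at 0 hpa and a count in each 6 hpa library, and 36 had the reverse. Only 3 and 0 of these, in that order, had enough reads to be tested. The median log2 change of the 274 strong rises was 1.34, and it stays there with the 2 transcripts at their lower bounds, since both bounds lie above it.

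The balance of rises and falls depended on how many reads a transcript had. Transcripts were put in classes by their mean CPM over all 48 libraries, a measure of read number and not of molecules, since transcript lengths were not used. Only tested transcripts are counted, and the filter keeps a transcript when enough libraries reach a read limit. Some with few reads may thus be tested only through the group where they are high. The shares in the lowest class depend on that filter, whose part was not tested. In the class under 1 CPM, 6.45% of 2294 transcripts rose and 1.26% fell. In the class of 1 to 10 CPM, 7.73% of 5844 rose and 5.03% fell. From 10 to 100 CPM the order turned, with 11.6% of 7730 rising and 14.4% falling. Over 100 CPM, 14.5% of 1659 rose and 19% fell. Strong rises sat largely among transcripts with few reads, 140 of the 274 under 1 CPM, 100 at 1 to 10 CPM, 25 at 10 to 100 CPM and 9 above. The strong falls were spread in the same order, with 29, 25, 12 and 1. The median standard error of a log2 change was 0.41 in the lowest class and 0.07 in the highest, and 140 of the 148 rises called in the lowest were at least 2-fold.

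The tested transcripts with few reads, a set that the filter helped to choose, also moved as a body. The median log2 change of all 2294 tested in the class under 1 CPM was 0.12, against -0.01, -0.03 and -0.05 in the other classes from low to high. Summed over 2995 transcripts under 1 CPM, the level was 1650 to 1725 CPM in the 0 hpa libraries and 1862 to 1915 CPM in the 6 hpa libraries. The 2 times did not overlap. The same sum in the controls with 6 feedings was 1541 to 1686 CPM at 0 hpa and 1142 to 1587 CPM at 6 hpa, which overlapped, and the median log2 change of the class was -0.22. After myoD RNAi the median was 0.12, as in the controls of its experiment, and after fst RNAi it was -0.16. These shifts move with the counts of strong rises given here, and their part in those counts was not tested.

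**Figure D2:**
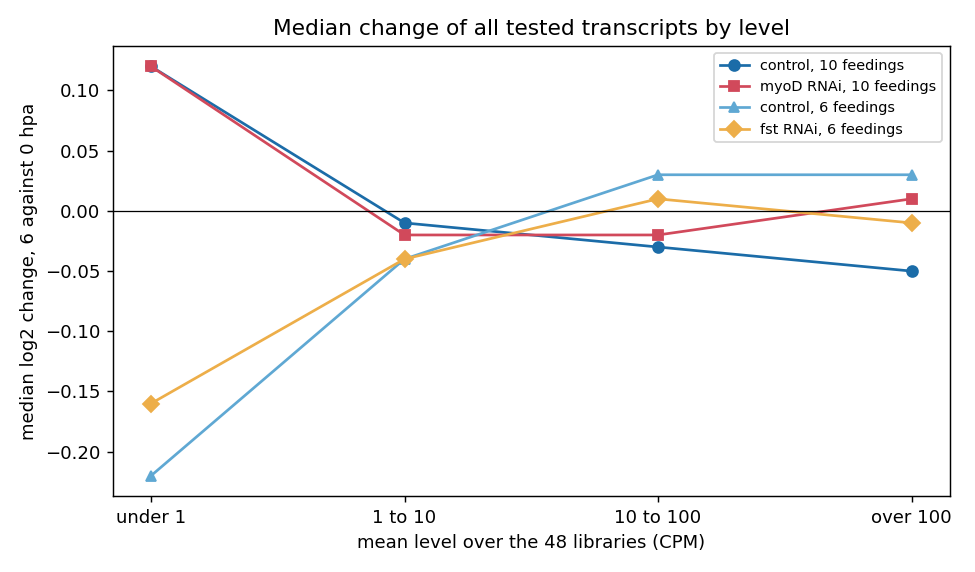
Median log2 change from 0 to 6 hpa (vertical axis) of all transcripts tested, by class of mean CPM over the 48 libraries (horizontal axis), with 1 line for each of the 4 comparisons of 3 against 3 libraries. In the class under 1 CPM both comparisons with 10 feedings lie at 0.12 and those with 6 feedings at -0.22 and -0.16.

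Among calls with at least 1 CPM at 6 hpa and no overlap of libraries, the largest rise belonged to dd_Smed_v4_16222_0_1. This transcript was barely present at amputation. It held 9, 4 and 4 counts in the 3 libraries at 0 hpa and 254, 305 and 188 at 6 hpa. In CPM these were 0.577, 0.283 and 0.228 at 0 hpa against 17.6, 17.4 and 13.1 at 6 hpa. Every 6 hpa library lay far above every 0 hpa library. The mean went from 0.363 ± 0.188 to 16.1 ± 2.53 CPM (SD, n = 3), a log2 change of 5.44 (approximate SE 0.32, edgeR adjusted p = 6.28e-12). This SE comes from the F value and is too small for so large a change from few counts. Leaving out any 1 of the 6 libraries gave log2 changes of 5.17 to 5.94. The other comparisons gave log2 changes of 5.84 after myoD RNAi, 6.35 in the controls with 6 feedings and 6.01 after fst RNAi. No test of a difference from the control rise passed, with edgeR adjusted p = 0.999 against myoD RNAi and 0.513 against the controls with 6 feedings. Control wounds then held it at 8.19, 14.7 and 13.4 CPM at 24 hpa and at 5.69, 6.88 and 8.45 CPM at 48 hpa. Both later times lay above all 0 hpa libraries, which serve as the reference for each time. After myoD RNAi it was 0.509 to 1.19 CPM at 24 hpa and 0.149 to 0.516 CPM at 48 hpa, below every control library of the same time. After fst RNAi it was 2.71 to 3.95 CPM at 24 hpa and 0.756 to 1.63 CPM at 48 hpa, likewise below the 12.6 to 15.8 CPM and 6.57 to 9.07 CPM of its own controls. These differences at 24 and 48 hpa were not tested here.

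The rise with the lowest p-value of all transcripts tested, dd_Smed_v4_678_0_1, was a short pulse of an already abundant transcript. It was at 350, 313 and 348 CPM at 0 hpa and at 1260, 1330 and 1090 CPM at 6 hpa. The groups were wide apart, and the spread within each was small. The log2 change was 1.85 (SE 0.07, edgeR adjusted p = 5e-18), a 3.61-fold rise. It was back at 411 to 442 CPM at 24 hpa, where it still passed (log2 0.33, edgeR adjusted p = 8e-04). At 48 hpa it was 354 to 365 CPM and did not pass (log2 0.07, edgeR adjusted p = 0.452). The rise at 6 hpa passed in the other comparisons too, with log2 changes of 1.74 after myoD RNAi, 2.17 in the controls with 6 feedings and 2.14 after fst RNAi. Its 6 hpa means were 1180, 1190 and 1170 CPM in these, in the same order, against 1230 CPM in the controls with 10 feedings. Tests of the difference in change gave edgeR adjusted p = 0.999 against myoD RNAi and 0.274 against the controls with 6 feedings.

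The largest fall was that of dd_Smed_v4_1162_0_1, which dipped at 6 hpa and was partly restored by 24 hpa. It was at 16.1, 17.5 and 16.3 CPM at 0 hpa and at 3.68, 4.96 and 4.47 CPM at 6 hpa. The times did not overlap. The log2 change was -1.93 (SE 0.17, edgeR adjusted p = 2.66e-09), a 3.8-fold fall. At 24 hpa it had a mean of 12.7 ± 1.99 CPM and at 48 hpa of 12.3 ± 2.27 CPM (SD, n = 3). The fall after myoD RNAi had a log2 change of -1.69. The transcript went, in the controls with 6 feedings, from 18.8 ± 1.9 to 11.5 ± 2.24 CPM (SD, n = 3), a log2 change of -0.70 that passed (edgeR adjusted p = 0.00647). The starting levels of the 2 control sets were close, 16.1 to 17.5 against 17.1 to 20.8 CPM, whereas their 6 hpa levels did not overlap. The difference between the 2 log2 changes was -1.20 (SE 0.23, edgeR adjusted p = 0.00101).

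The fall with the lowest p-value among strong falls, dd_Smed_v4_3638_0_1, differed in its starting level between experiments. It was at 74.1, 77.4 and 82.1 CPM at 0 hpa and at 23.5, 26.1 and 19.8 CPM at 6 hpa. Every 0 hpa library was above every 6 hpa library, and the log2 change was -1.76 (SE 0.11, edgeR adjusted p = 8.28e-13). The level did not come back, with means of 16.3 CPM at 24 hpa and 17.9 CPM at 48 hpa. After myoD RNAi it started lower, at 45.3 to 59.7 CPM, and reached 23.3 to 25.2 CPM, a log2 change of -1.06. The difference from the control change was -0.70 and did not pass (SE 0.15, edgeR adjusted p = 0.452). With 6 feedings the controls were at 22.3 to 29.1 CPM already at 0 hpa, about the 6 hpa level of the long course. There the log2 change of -0.45 did not pass (edgeR adjusted p = 0.136). The difference between the 2 control changes was -1.29 (SE 0.21, edgeR adjusted p = 0.000155).

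**Figure D3:**
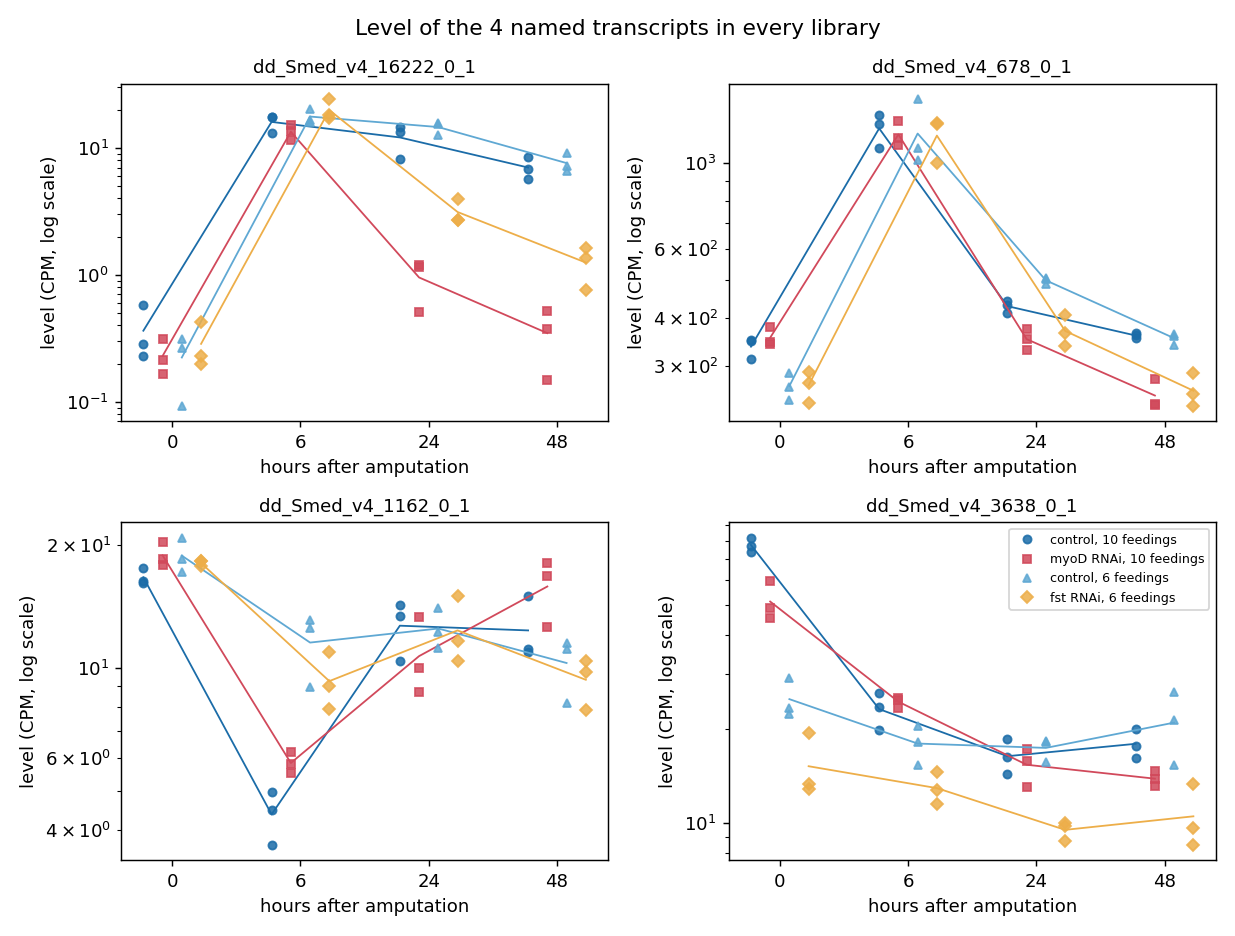
Level in CPM (vertical log axis) of the 4 named transcripts in each of the 48 libraries, by hours after amputation (horizontal axis, not to scale); each point is 1 library, lines join the means of 3 libraries, and colours give the 4 treatments. In the controls with 10 feedings, dd_Smed_v4_678_0_1 peaks at 6 hpa only, dd_Smed_v4_16222_0_1 is still at 5.69 to 8.45 CPM at 48 hpa, and dd_Smed_v4_3638_0_1 starts at 74.1 to 82.1 CPM against 22.3 to 29.1 CPM with 6 feedings.

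The authors' deposited table of the same 2 groups listed fewer changes in the same directions. At its adjusted p under 0.05 the authors' deposited table had 1151 higher and 997 lower transcripts among 25672 with a value. Of these, 1132 and 987 were also called here, 0 were called in the opposite direction and 22 were not tested here. At least 2-fold, the authors' deposited table had 219 higher and 44 lower. For dd_Smed_v4_16222_0_1 the authors' deposited table gives a log2 fold change of 5.47, and for dd_Smed_v4_1162_0_1 it gives -1.93.

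The median change of both strong lists was smaller at 24 and 48 hpa than at 6 hpa, the time that chose them. Lists chosen for large changes at 1 time are likely to show smaller ones at another. The smaller medians are therefore not read as a decay of the response. The comparisons of 24 and 48 hpa use the same 0 hpa libraries as the 6 hpa comparison that chose the lists, so their values are given side by side without a test of agreement. Of the 274 strong rises, 160 were also higher at 24 hpa and 2 were lower, where 14.3% of all transcripts tested were higher. At 48 hpa 89 were higher and 15 lower, where 20.4% of all were higher. Their median log2 change was 1.34 at 6 hpa, 0.98 at 24 hpa and 0.42 at 48 hpa. The estimate at 24 hpa exceeded that at 6 hpa in 50 of the 274. At 48 hpa it exceeded it in 32, and it was at or below the 0 hpa level in 89. Of the 67 strong falls, 30 were also lower at 24 hpa (16.5% of all tested) and 29 at 48 hpa (23.3% of all tested). Their median log2 change was -1.24 at 6 hpa, -0.54 at 24 hpa and -0.52 at 48 hpa.

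Most strong rises of the controls also passed after myoD RNAi, whose libraries are no part of the control contrast but share its filter and estimate of the spread. After myoD RNAi 1726 transcripts (9.85%) were higher and 1248 (7.12%) lower at 6 hpa, and their total of 2974 was 1963 without 0 hpa replicate 1. Of the 274 strong rises of the controls, 189 (69%) also passed as higher after myoD RNAi and 0 as lower. Their median log2 change was 1.15, against -0.01 over all transcripts tested. The share of 69% was 57.3 to 75.9% without 1 library and 58.5% without the filter on low counts. Of the 67 strong falls, 32 passed as lower and 0 as higher, with a median of -0.75. With nothing shared, that is with 231 strong rises called in a fit of the 6 control libraries and myoD RNAi fitted on its own 6 libraries, 84.4% of the rises passed after myoD RNAi. That myoD RNAi fit also called more transcripts in all, 4135 against 2974. Its share of all transcripts called higher is not given here, so the 84.4% has no background beside it. A list chosen for large changes in 1 set of libraries is likely to show smaller ones in another, so the lower medians are not read as a weaker response. Among all 3486 calls of the controls, the estimate after myoD RNAi had the same sign in 3394 (97.4%). The same share over all transcripts tested was not computed, so the 97.4% has no background either. Across the 17527 transcripts the correlation of the 2 sets of log2 changes was 0.66, and across the 3486 it was 0.89. These describe transcripts of the same libraries, which are not independent replicates.

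The difference between the control and the myoD change was tested for each transcript, and 0 of 17527 passed with edgeR (background 0%). At an unadjusted p under 0.05 there were 322 with a positive difference (control minus myoD RNAi) and 505 with a negative one. DESeq2 also gave 0, with 228 and 357 at an unadjusted p under 0.05. The lowest edgeR adjusted p was 0.452. These counts do not show that the 2 responses were equal. For dd_Smed_v4_678_0_1, one of the most precisely measured, the difference of log2 changes was 0.11 with a standard error of 0.10. For dd_Smed_v4_16222_0_1 it was -0.40 with a standard error of 0.70.

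Fewer transcripts passed in the experiment with 6 feedings than in that with 10. In that experiment 674 transcripts (3.78%) were higher and 500 (2.81%) lower at 6 hpa. Its common biological coefficient of variation was 13% with the library with noted human reads included, against 8.34% in the experiment with 10 feedings. Its 6 hpa libraries went down to 10664393 counts. That lowest library was control replicate 2, without which the controls gave 1100 calls against 1174. Control replicate 3 of 6 hpa held 16792876 counts, but only 21899 transcripts had a count in it. Replicate 1 had 22909 at 16688670 counts. Of the 274 strong rises, 238 had enough reads to be tested there, with a median log2 change of 0.11. Of these, 57 (23.9%) passed as higher, against 3.78% of all transcripts, and 11 (4.62%) as lower, against 2.81%. The 11 are not read as a result about the strong rises. After fst RNAi 869 transcripts (4.88%) were higher and 507 (2.85%) lower. There 73 of the 238 strong rises (30.7%) passed as higher and 11 (4.62%) as lower, with a median of 0.43. Of the 67 strong falls, 12 (17.9%) passed as lower in the controls with 6 feedings and 19 (28.4%) after fst RNAi. In both, 0 passed as higher. These counts depend on single libraries. Leaving out replicate 3 of the 6 hpa controls brought their total of 1174 calls to 398, and leaving out replicate 2 or 3 of the 0 hpa controls brought it to 511 and 546. It came to 2132 without the library with noted human reads. For fst RNAi the total of 1376 became 797 and 795 when replicate 1 or 2 of 0 hpa was left out, 904 and 682 for replicate 2 or 3 of 6 hpa, and 2329 for that library.

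Most strong rises over 10 CPM passed in each of the other comparisons, and smaller shares passed under 10 CPM, where smaller shares of all transcripts passed too. Of the 9 strong rises over 100 CPM, all 9 passed after myoD RNAi, 8 in the controls with 6 feedings and 8 after fst RNAi, where 18.1%, 5.42% and 7.84% of all transcripts of that class were higher. Of the 25 at 10 to 100 CPM the numbers were 25, 20 and 21, in the same order, where 10.9%, 5.63% and 7.14% of the class were higher. Of the 100 at 1 to 10 CPM they were 83, 25 and 31, where 7.22%, 2.38% and 2.77% of the class were higher. Under 1 CPM, 72 of 140 passed after myoD RNAi, where 7.19% of the class were higher. With 6 feedings 104 of that class could be tested, and 4 (3.85%) passed in the controls and 13 (12.5%) after fst RNAi, where 0.388% and 0.969% of the class were higher. So the share of strong rises lay above that of its class in each case. In the controls with 6 feedings the median log2 change was 1.51 over 100 CPM, 1.26 at 10 to 100 CPM, 0.32 at 1 to 10 CPM and -0.37 under 1 CPM. After myoD RNAi it was 1.28, 1.12, 1.11 and 1.16 in the same classes.

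Of the 274 strong rises, 238 were tested in all 4 comparisons. Of these, 53 (22.3%) passed as higher in all of the other 3, 16 (6.72%) in 2, 105 (44.1%) in 1 and 64 (26.9%) in none. Over all 17288 transcripts tested in the 4 comparisons the shares were 2.05%, 1.98%, 8.47% and 87.5%. The 67 strong falls divided into 10, 9, 15 and 33 that passed as lower in 3, 2, 1 and none. The share that passed in all 3 was 14.9%, against 0.613% over all transcripts.

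**Figure D4:**
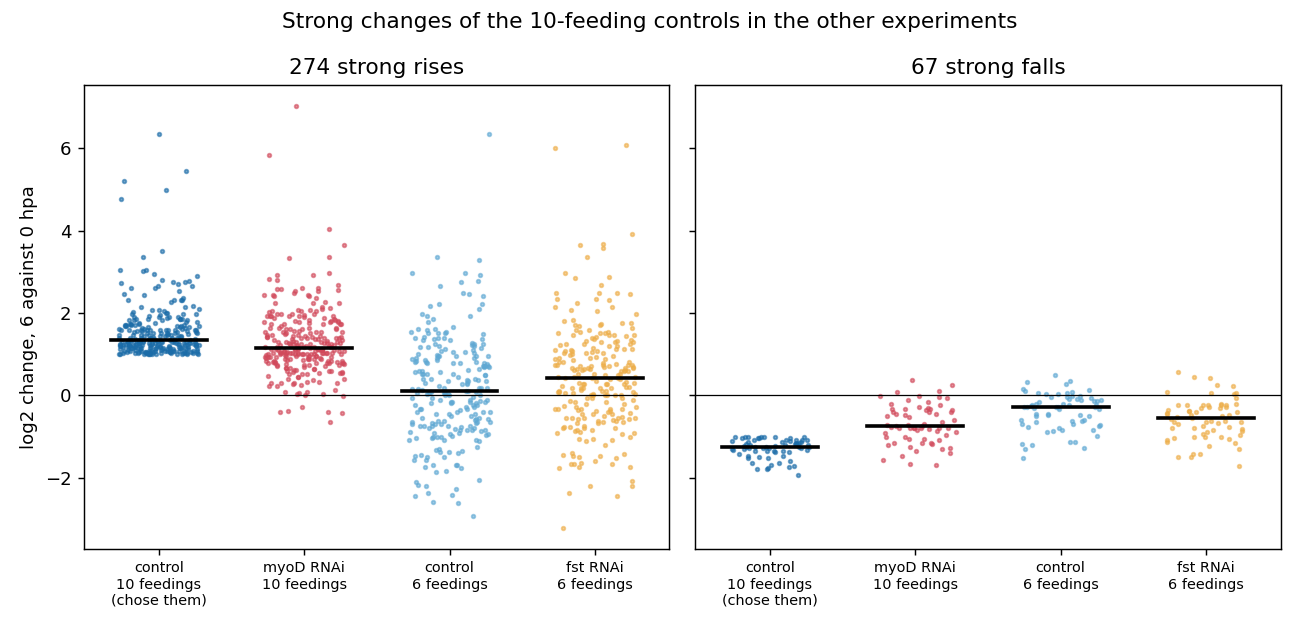
Log2 change from 0 to 6 hpa (vertical axis) of the 274 strong rises (left) and 67 strong falls (right) in the control wounds with 10 feedings that chose them and in the other 3 comparisons; each point is 1 transcript and black bars are medians. For the rises the medians are 1.34, 1.15, 0.11 and 0.43 from left to right, and the points of the comparisons with 6 feedings lie on both sides of 0.

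The difference between the 2 control responses was tested in a fit of all 48 libraries. It passed in 730 of 18230 transcripts (4%), of which 550 (3.02%) had a positive difference (log2 change with 10 feedings minus that with 6) and 180 (0.987%) a negative one. A negative difference is not a smaller change, since 115 of the 180 were transcripts called as falls with 10 feedings. Without the fst library whose label notes human reads the total was 1357, and without replicate 3 of the 6 hpa controls with 6 feedings it was 338. It was 1120 without replicate 1 of those 6 hpa controls, and 432 and 479 without replicate 2 or 3 of their 0 hpa group. DESeq2 called 619 and 259. Of the 274 strong rises, 90 had a positive difference and so rose further with 10 feedings, and 2 had a negative one. The 10-feeding libraries that chose the strong rises also enter this difference, so the count is a description. It was 53 without replicate 3 of the 6 hpa controls with 6 feedings, and 104 without the fst library with noted human reads. Of the 67 strong falls, 14 had a negative difference and so fell further with 10 feedings, and 0 had a positive one.

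The 90 transcripts were then followed in the RNAi libraries, which are no part of the contrasts that chose them but share the filter and the estimate of the spread of the joint fit. After myoD RNAi, 70 of the 90 (77.8%) passed as higher and 0 as lower, with a median log2 change of 1.5, where 9.85% of all transcripts were higher. After fst RNAi 73 could be tested, with a median of -0.58. Of these, 3 (4.11%) passed as higher, against 4.88% of all transcripts, and 10 (13.7%) as lower, against 2.85% of all. Of the 90, 47 lay under 1 CPM and 39 at 1 to 10 CPM. After fst RNAi 0.969% and 2.77% of all transcripts of these classes were higher, and 1.4% and 2.7% lower. The difference between the myoD and the fst change passed in 324 of 18230 transcripts, 274 (1.5%) with a positive difference (myoD minus fst RNAi) and 50 (0.274%) with a negative one. That total was 205 without myoD 0 hpa replicate 3, and 201 and 192 without fst 0 hpa replicate 1 or 2. It was 484 without the fst library with noted human reads. Of the 90, 40 had a positive difference that passed and 0 a negative one. Of the named falls, dd_Smed_v4_3638_0_1 passed there with a difference of -0.83 (SE 0.22, edgeR adjusted p = 0.0338). The difference of dd_Smed_v4_1162_0_1 was -0.74 and did not pass (SE 0.23, edgeR adjusted p = 0.0918). Without the filter on low counts the 40 became 38, and leaving out each of the 12 libraries of the difference gave 33 to 40. Feeding course and experiment cannot be told apart in this difference either, and the RNAi target differs as well.

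The median level of the 90 transcripts in controls was highest at 6 hpa with 10 feedings and lowest at 6 hpa with 6. The 0 and 6 hpa libraries of both control sets chose the 90, so their levels are a description of the choice and no support for it. In the controls with 10 feedings, the median level over the 90 was 0.566 to 0.683 CPM in the 0 hpa libraries and 1.64 to 1.91 CPM at 6 hpa. It was 1.35 to 1.44 CPM at 24 hpa and 0.681 to 0.715 CPM at 48 hpa, about the level at amputation. In the controls with 6 feedings it was 0.786 to 0.854 CPM at 0 hpa and 0.255 to 0.48 CPM at 6 hpa. The direction was opposite in the 2 control sets, as the choice favours. Of the 73 of these transcripts tested with 6 feedings, 1 passed as higher in the controls and 11 as lower. In the class under 1 CPM lay 47 of the 90, and in that of 1 to 10 CPM lay 39, so the shift of the whole class of low reads moves with this pattern. Its part was not tested.

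The other 184 strong rises are those left when the 90 were taken out, which removed all 11 that passed as lower in the controls with 6 feedings. Their counts and levels in those controls are therefore largely set by the split. After myoD RNAi 119 (64.7%) passed as higher, against 9.85% of all transcripts, and 0 as lower. Of 165 tested in the controls with 6 feedings, 56 (33.9%) passed as higher, against 3.78% of all, and 0 as lower. After fst RNAi 70 (42.4%) of the 165 passed as higher, against 4.88% of all, and 1 as lower. Their median library level in the controls with 10 feedings went from 0.566 to 0.577 CPM at 0 hpa to 1.4 to 1.6 CPM at 6 hpa, and was still 0.943 to 1.02 CPM at 48 hpa. With 6 feedings it went from 0.591 to 0.692 CPM at 0 hpa to 0.7 to 0.901 CPM at 6 hpa. The 6 hpa level there was below that of the long course.

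**Figure D5:**
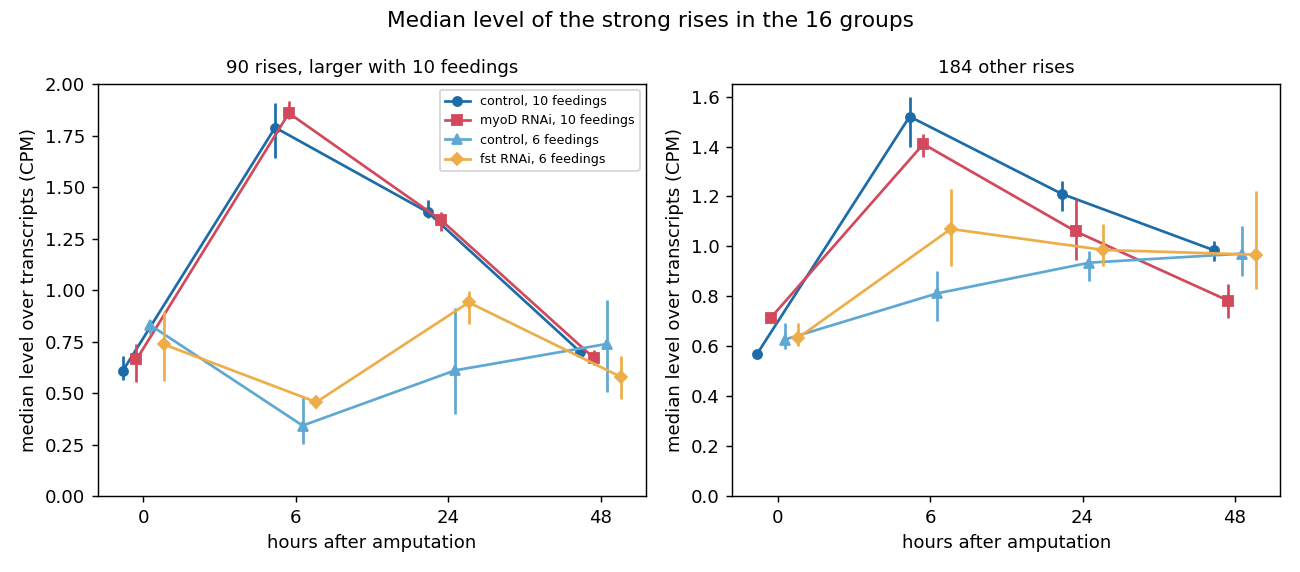
Median level in CPM (vertical axis, from 0) over the 90 strong rises with a larger change in the controls with 10 feedings (left) and over the other 184 (right), lists that the control libraries at 0 and 6 hpa chose, by hours after amputation (horizontal axis, not to scale); points are the mean of 3 library medians and vertical bars run from the lowest to the highest library. The left panel shows the controls with 10 feedings at 1.64 to 1.91 CPM and those with 6 feedings at 0.255 to 0.48 CPM at 6 hpa.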

How the data were processed

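Polyadenylated RNA of 48 libraries was measured, of which 6 form the comparison. Per the submitters' processing notes, the tools included Bowtie 1.1.1, cutadapt 1.8, DESeq, SAMtools and CASAVA. Whether counting used strand is unknown here. The authors deposited raw counts per transcript and library. In the authors' deposited comparison table, per the file headers, group means are a normalised signal, fold changes are a ratio of the means, log2 fold changes are given as log2, and a p-value stands beside its adjusted form. Of the 20 such deposited tables, 1 was used.

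The counts were fitted with edgeR 4.0.16 under R 4.3.3 (filterByExpr, TMM, robust quasi-likelihood fits with 1 coefficient per group, F-tests), with the 24 libraries of each experiment in 1 fit and all 48 in a joint fit for differences between experiments. These tested 17527, 17815 and 18230 transcripts. A call needs an adjusted p under 0.05 (Benjamini-Hochberg, over every transcript of the fit). Standard errors are the size of the log2 change over the root of F, an approximation that can be too small for large changes. DESeq2 1.42.0 and other settings served as alternatives. The procedure was tested on simulated data with a single common spread, where changes were planted only in transcripts with more reads. Recovery of changes among transcripts with few reads was not covered. Floors of 3 counts cover only counting error, as reads carry no molecular identifiers. Identifiers paired with a gene name numbered 0, and 317 transcripts share an assembly component with another, which can divide the reads of related ones; the 4 named ones do not.

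The named transcripts are, among calls with at least 1 CPM in the higher group and no overlap of libraries, the largest rise and fall and the strong rise and fall with the lowest p-value. The members, lists and rules were chosen with earlier results of these data known. The difference between myoD and fst RNAi and the read classes were added after the data were seen.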

Additional observations from a re-analysis of the deposited data

Results flagged for a closer look

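The change from 0 to 6 hpa differed between groups of libraries in the test of the difference itself, at an edgeR adjusted p under 0.05. Between the controls with 10 and with 6 feedings it differed in 730 transcripts. Between myoD RNAi with 10 feedings and fst RNAi with 6 feedings it differed in 324 transcripts. For dd_Smed_v4_1162_0_1 the log2 change with 10 feedings minus that with 6 feedings was -1.2 in the controls. For dd_Smed_v4_3638_0_1 the same difference between the controls was -1.29, and between myoD and fst RNAi it was -0.83. The feeding course and the experiment differ together in each of these, so they cannot be told apart. Groups of 3 libraries were not screened for single outlying libraries.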

How the results depend on the processing

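The total of calls in the controls with 10 feedings was 2379 to 3155 without 1 library, against 3486, and stayed within 1.5 times under RLE scaling, no filter, DESeq2, a fit of the 6 libraries alone and a replicate block. The rises were 1258 to 1563 and the falls 1121 to 1592 without 1 library, with the lowest value of both without 6 hpa replicate 1. Strong rises were 227 to 286 and strong falls 48 to 81. Tested against 2-fold, they were 35 and 2. Same-numbered libraries deviated together with r = 0.11, -0.1 and 0.13, which shows no pairing but cannot exclude one. The replicate block gave 3445 calls, 2954 after myoD RNAi, 1057 and 1285 in the short experiment, and 0, 695 and 316 for the differences. Without 1 library, calls were 1963 to 2390 after myoD RNAi, 398 to 1307 in the controls with 6 feedings and 682 to 1217 after fst RNAi. The differences gave 0 to 1 for control against myoD, 338 to 1120 for the 2 controls and 192 to 316 for myoD against fst. Fitted on the compared groups alone, myoD RNAi gave 4135 calls. In the same setting the controls with 6 feedings gave 726 calls, fst RNAi 2847 and the myoD against fst difference 866. Without the fst library at 48 hpa with noted human reads, chosen after seeing the data, the controls with 6 feedings gave 2132 calls and fst RNAi 2329. The differences then gave 1357 for the 2 controls and 484 for myoD against fst. The share of strong rises passed after myoD RNAi was 58.5% without a filter and 84.4% on the compared groups alone, and in the controls with 6 feedings 18.2% and 31.6%, against 69% and 23.9%. The 4 named changes kept direction and call in every alternative run, with a highest adjusted p of 1.23e-07. RLE scaling gave 53.3% rises among calls against 49.9%. The cause of these movements was not tested. Depth limits the class under 1 CPM, where the median standard error was 0.41 and 140 of the 148 rises called were at least 2-fold.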
